A study of Mus musculus with 2 samples.

Results

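Gal, Penk, Sst, Npy and Cartpt encode the precursors of galanin, the enkephalins, somatostatin, neuropeptide Y and the CART peptides, and Sstr2 encodes a somatostatin receptor. These 6 genes, of 28692 listed in both count matrices, were matched by symbol. They were chosen with earlier results of these data known, so their levels in the sort gates and cell groups are given as a description, with no test. The cells came from retinas of E14.5 mice heterozygous for Tg(Lhx4::EGFP)KN199Gsat/Mmucd, a bacterial artificial chromosome transgene that places EGFP under Lhx4 regulatory sequence and that both sort gates carry. Retinas from 2 litters were pooled into one suspension before sorting. The GFP+ gate, labelled as cone photoreceptors, and the GFP- gate, labelled as retinal cells, gave 1 droplet library each. In that assay a unique molecular identifier (UMI) marks each captured transcript.

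Neuropeptides are cut from larger precursors by convertases and carboxypeptidases in the regulated secretory pathway and act on G protein-coupled receptors, Sstr2 being a Gi-coupled receptor for somatostatin. In the mature retina they are mostly made by sparse amacrine and ganglion cell types. In the embryo several precursors are also transcribed in dividing neural precursors, before synapses form.

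The genes lie on 6 chromosomes of GRCm38, the mouse build of the count matrices. In the GENCODE annotation, Gal (ENSMUSG00000024907) spans chr19:3409915-3414544 and Penk (ENSMUSG00000045573) chr4:4133531-4138819, both on the minus strand. Sst (ENSMUSG00000004366) spans chr16:23889573-23890958 on the minus strand and Sstr2 (ENSMUSG00000047904) chr11:113619342-113626028 on the plus strand. Npy (ENSMUSG00000029819) spans chr6:49822710-49829507 on the plus strand and Cartpt (ENSMUSG00000021647) chr13:99898489-99901091 on the minus strand. Promoter windows of 300 bases from RefSeq (GRCm38.p6) were held for 5 of the 6 genes, all but Penk. The cAMP response element TGACGTCA, a palindrome that reads the same on both strands and was first described in the somatostatin promoter, is shown because it stood once in the window of the ligand gene Sst and once in that of its receptor gene Sstr2, as well as once in that of Cartpt. Capitals mark the element, and each run is 30 bases written 5′ to 3′ on the gene's strand.
Sst: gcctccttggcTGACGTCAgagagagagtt
Sstr2: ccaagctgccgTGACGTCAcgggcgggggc
Cartpt: ccggcgggcatTGACGTCAaacggcagcgg
The runs lie at chr16:23890874-23890903, chr11:113619258-113619287 and chr13:99900777-99900806, and the element begins 48, 58 and 112 bases before the RefSeq start of Sst, Sstr2 and Cartpt. The GENCODE models of Sst and Cartpt begin further upstream, so that their runs overlap an annotated exon and UTR, whereas the Sstr2 run lies outside its annotated gene. The element stood in 1.79% of all 32851 promoter windows and in neither the Gal nor the Npy window. TAATCC, a motif bound by Otx2 and Crx and searched on both strands, stood in none of the 5 windows and in 7.06% of all of them. A match of letters does not show binding, and its absence says nothing about a factor.

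Limits on genes and mitochondrial UMIs were taken from the study's methods. Barcodes were retained where 250 to 3500 genes were found and under 0.25 of UMIs were mitochondrial. This left 3689 GFP+ cells (median 3894 UMIs, 15503658 in all) and 3389 GFP- cells (median 8848 UMIs, 30094636 in all). The upper limit on genes removed 1.05% of GFP+ and 23.7% of GFP- cells, so values without it are given where they differ. Without that limit 3728 GFP+ and 4444 GFP- cells were left. The cell numbers in the study's text equal those without the upper limit. Its clusters may therefore hold cells that were left out here. As the GFP- cells were more deeply read, shares of cells with a UMI are also given after thinning each cell to 3200 UMIs, which left out 579 GFP+ and 28 GFP- cells. Levels are UMIs per 1000000 UMIs (CPM), followed in brackets by the 95% interval, exact Poisson for levels, exact Clopper-Pearson for shares and exact conditional binomial for ratios. With 1 library per gate there was no replicate, and these intervals cover counting error only. UMIs of one cell are not independent, so the interval of a level is narrower than the spread between cells, and shares of cells are given beside levels that few cells carry. The gates shared 20 barcodes, 15 of them kept in both, and none had a UMI of the 6 genes in both libraries. A doublet caller, Scrublet, marked 3 GFP+ and 55 GFP- barcodes, and none of the kept GFP- cells. So few were marked in the GFP+ library that doublets there may have been missed.

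Gal and Sst were found almost wholly in the GFP- library, and Penk was higher there. The Cartpt level was also higher there but rested on few cells, and the Sstr2 level differed by less than 2-fold. The Gal level was 256 CPM (250.4 to 262) in GFP- cells, from 7707 UMIs, and 0.323 CPM (0.105 to 0.753) in GFP+ cells, from 5 UMIs, a ratio of 794 (340.1 to 2446). The Penk level was 31.7 CPM (29.7 to 33.8) in GFP- cells and 3.61 CPM (2.73 to 4.69) in GFP+ cells, a ratio of 8.78 (6.70 to 11.7). The Sst level was 13.2 CPM (11.9 to 14.52) in GFP- cells, while the GFP+ library held 1 UMI, a ratio of 204 (36.4 to 8078). The intervals of Gal, Penk and Sst do not overlap between the gates, nor do those of Cartpt given below. The share of all genes with such intervals is not given, so nothing is read from this. The Sstr2 level was 22.7 CPM (21.0 to 24.4) against 20.3 CPM (18.1 to 22.7) in GFP- and GFP+ cells, a ratio of 1.12 (0.975 to 1.28) that became 0.889 (0.781 to 1.01) without the upper limit on genes. Both intervals of the Sstr2 ratio include 1. The ratio was 1.40 when scaled by TMM factors, and 2.36 as mean UMIs per cell, a measure that keeps the deeper reading of GFP- cells. Cartpt had 50 UMIs in GFP- cells (1.66 CPM, 1.23 to 2.19) and 3 UMIs in GFP+ cells, a ratio of 8.59 (2.77 to 43.0). These UMIs lay in 9 GFP- and 3 GFP+ cells. Npy had 4 UMIs in GFP- cells and 0 in GFP+ cells, where the interval reaches 0.238 CPM, so no ratio is given and Npy was barely detected in this retina.

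Of 15236 genes with at least 10 UMIs over both libraries, 16.2% had a GFP- over GFP+ ratio of CPM of at least 2 and 23.0% one of at most 0.5, with a median log2 ratio of -0.30. Of the 6 genes, 4 (Gal, Penk, Sst and Cartpt) were at least 2-fold higher in GFP- cells, Sstr2 was within 2-fold, and Npy had too few UMIs. Since the genes were chosen on this contrast, nothing is read from that count. Scaling by TMM factors raised each GFP- over GFP+ log2 ratio by 0.33, and the share of all genes past the ratio then turned from mostly lower (2473 higher, 3507 lower) to mostly higher in GFP- cells (3184 higher, 2416 lower).

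**Figure D1:**
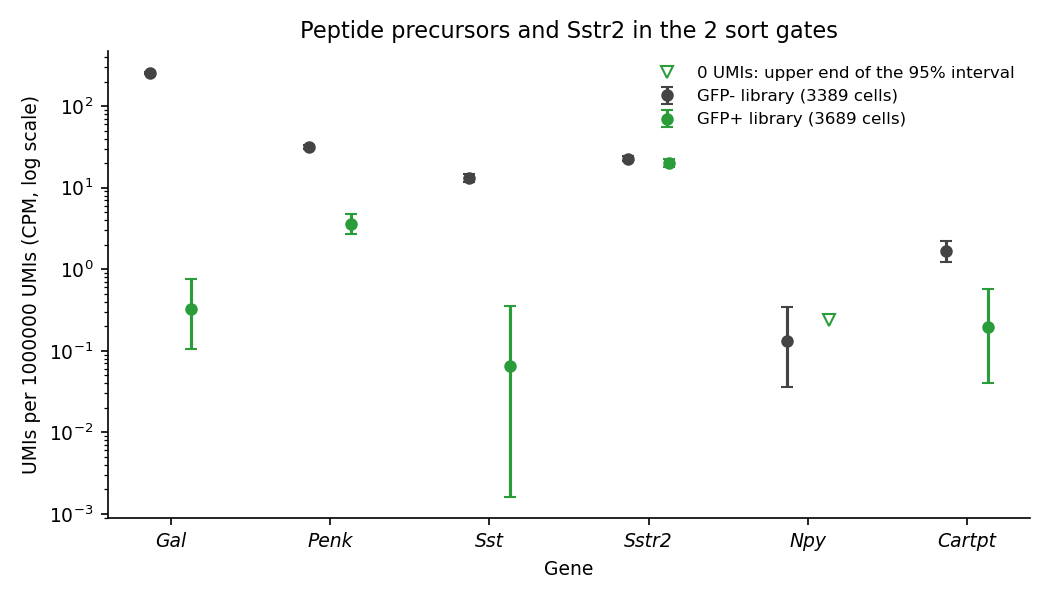
UMIs per 1000000 UMIs on a log axis for the 6 genes in the GFP- library (dark) and the GFP+ library (green), with 95% exact Poisson intervals as bars. An open triangle marks the upper end of the interval for Npy, which had 0 UMIs in GFP+ cells. The gates lie furthest apart for Gal and Sst and side by side for Sstr2.

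The number of UMIs per cell separated transcripts that few cells held in large amounts from transcripts spread thinly. Of 645 GFP- cells with a Gal UMI, 288 had a single UMI and 188 had 10 or more, up to 236 in one cell, and cells with 5 or more held 93.0% of Gal UMIs. Of 68 cells with an Sst UMI, 35 had a single UMI and 15 had 10 or more, up to 60, and cells with 5 or more held 83.8% of Sst UMIs. Both peptides were thus counted mainly in a minority of their positive cells. Penk was found in 354 GFP- cells, of which 59 had 5 or more UMIs, up to 20, and these held 45.1% of its UMIs. Sstr2 was found in 294 GFP- cells, of which 36 had 5 or more UMIs, up to 11, and these held 34.6% of its UMIs. In the GFP+ library none of 277 cells with an Sstr2 UMI had more than 3, and 240 had a single one. Before thinning, the Sstr2 levels were made up differently, by GFP+ cells mostly with 1 UMI and by GFP- cells that reached 11. Of the 294 GFP- cells, 141 also had a single UMI. The GFP- cells were more deeply read, and after thinning none had more than 5 Sstr2 UMIs. Of the 43 GFP+ cells with a Penk UMI, 41 had a single one, and the remaining 2 cells held 15 of the 56 UMIs.

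**Figure D2:**
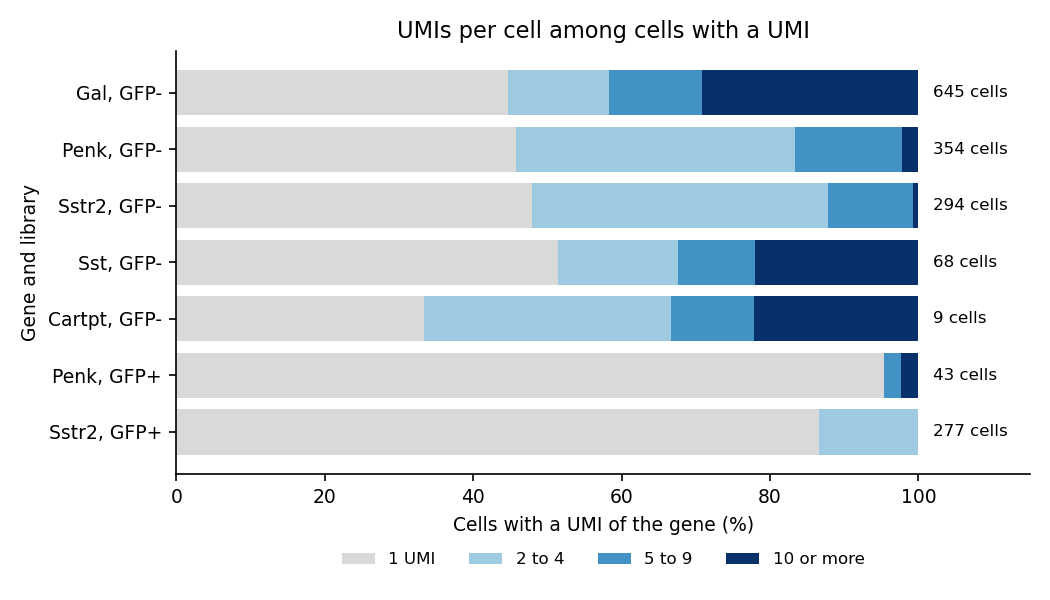
Cells with at least 1 UMI of a gene, as percent of those cells, divided by the number of UMIs of that gene in the cell, with the number of cells at the right. Gal and Sst in GFP- cells have the widest class of 10 or more UMIs among genes found in more than 9 cells, and Sstr2 in GFP+ cells has none above 4.

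The share of cells with a UMI gave the same order between the gates for Gal, Penk and Sst. A Gal UMI was found in 19.0% of GFP- and 0.136% of GFP+ cells, and in 13.0% and 0.0322% after thinning. A Penk UMI was found in 10.4% of GFP- and 1.17% of GFP+ cells, and in 6.19% and 0.932% after thinning. For Sst the shares were 2.01% and 0.0271%, and after thinning 1.19% and 0.0322%. For Cartpt they were 0.266% (0.122 to 0.504) in GFP- and 0.0813% (0.0168 to 0.237) in GFP+ cells, intervals that overlap. After thinning the Cartpt shares were 0.208% (0.0838 to 0.429) and 0.0643% (0.00779 to 0.232), which overlap as well. For Sstr2 the unthinned shares were 8.68% (7.75 to 9.67) in GFP- and 7.51% (6.68 to 8.41) in GFP+ cells. Thinning turned their order, to 5.03% (4.31 to 5.82) in GFP- and 6.40% (5.56 to 7.32) in GFP+ cells, with intervals that overlap, so no order of the gates is read for Sstr2.

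GFP- cells were placed in groups by 2 or more UMIs summed over a marker set. Cells in exactly 1 of 3 sets of fate-related transcription factors formed the Otx2/Crx group (385 cells), the Tfap2/Ptf1a group (Tfap2a, Tfap2b and Ptf1a, 406 cells) and the Pou4f group (Pou4f1, Pou4f2 and Pou4f3, 350 cells). Of the rest, cells with a set of proneural factors that includes Olig2, Neurog2 and Atoh7 formed the proneural group (763 cells), and cells with a set of progenitor genes that includes Sfrp2, Hes1 and Nr2e1 and in none of the former sets formed the progenitor group (1394 cells). Another 16 cells were in more than 1 of the 3 sets and 75 in no group. Markers that had not set the groups were highest in their own group for 12 of 14 ganglion cell genes, 7 of 9 amacrine and horizontal cell genes, 6 of 6 photoreceptor genes and 3 of 5 progenitor genes. Of the amacrine and horizontal cell genes, Meis2 and Onecut1 were not highest in theirs. All 5 genes chosen to check neurogenic cells (Dll1, Dll3, Gadd45a, Hes6 and Btg2) were highest among the named groups in the Otx2/Crx group instead, as were Neurog2 and Atoh7. Of its 385 cells, 311 had 2 or more UMIs of the proneural set and 206 had 2 or more UMIs of 6 cell cycle genes. The group is therefore called by its genes and not a photoreceptor group.

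Penk, the enkephalin precursor, was highest in the Otx2/Crx group, at 229 CPM (212 to 247) and in 50.4% of cells. It was 29.2 CPM in the proneural group, 11.6 CPM in the Tfap2/Ptf1a group, 3.25 CPM (1.68 to 5.68) in the Pou4f group and 1.93 CPM (1.25 to 2.85) in the progenitor group. The last 2 intervals overlap, and the other neighbours in that order do not. The Otx2/Crx group made up 11.4% of GFP- cells and held 71.3% of Penk UMIs. In the progenitor group each of 25 cells with a Penk UMI had exactly 1, a share of 1.79% at a median of 9400.5 UMIs per cell, against 50.4% at a median of 7531 in the Otx2/Crx group.

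Sstr2 followed nearly the same order. Its level was 163 CPM (148 to 178) in the Otx2/Crx group, 15.2 CPM in the proneural group, 13.0 CPM in the Pou4f group, 11.6 CPM in the Tfap2/Ptf1a group and 0.617 CPM (0.267 to 1.22) in the progenitor group. The 3 middle values have overlapping intervals, and the highest and lowest stand clear of them. The Otx2/Crx group held 70.8% of Sstr2 UMIs, with a UMI in 44.2% of its cells, against 0.574% of progenitor group cells, 8 cells with 1 UMI each. After thinning, the shares of cells with a UMI in the Otx2/Crx group were 35.7% for Penk and 28.6% for Sstr2.

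Within the Otx2/Crx group both genes were higher in cells that also held Olig2, a basic helix-loop-helix factor of neurogenic precursors. Penk was 383 CPM (350.3 to 417) in the 154 cells with an Olig2 UMI and 101.0 CPM (86.1 to 118) in the 231 without, and Sstr2 was 263 CPM (236 to 291) and 79.5 CPM (66.3 to 94.4). The split by cell cycle genes ran the same way. In the 206 cells with 2 or more UMIs of Mki67, Top2a, Ccnb1, Cdk1, Pcna and Mcm5, Penk was 339 CPM (313 to 367), against 47.9 CPM (36.0 to 62.5) in the other 179 cells. Sstr2 was 205 CPM (185 to 227) and 92.2 CPM (75.4 to 112) in the same cells. The cells with 2 or more cell cycle UMIs were deeper, at a median of 8998 against 6308 UMIs. After thinning, a Penk UMI was still found in 58.7% against 8.14% of cells and an Sstr2 UMI in 36.9% against 18.6%. These splits were chosen after their values had been seen.

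Cells of the Otx2/Crx group with later photoreceptor genes had lower levels of both. With 2 or more UMIs of Crx, a homeobox factor of postmitotic photoreceptor precursors, Penk was 14.1 CPM (7.03 to 25.2) and Sstr2 32.0 CPM (20.7 to 47.2) in 121 cells, against 315 CPM (291 to 341) and 210.3 CPM (191 to 231) in the 239 cells without a Crx UMI. With a UMI of Thrb, the thyroid hormone receptor gene of early cones, Penk was 30.8 CPM (17.2 to 50.8) and Sstr2 43.1 CPM (26.7 to 65.9) in 83 cells. With a UMI of Gngt2, a cone transducin subunit gene, Penk was 17.0 CPM (4.62 to 43.4) and Sstr2 12.7 CPM (2.62 to 37.2) in 49 cells, which had a median of 4476 UMIs. The 74 cells with under 2 proneural UMIs had 4 Penk and 6 Sstr2 UMIs.

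Cells of the GFP+ library with 2 or more Otx2 and Crx UMIs, 3623 of the 3689, held all 56 Penk and all 315 Sstr2 UMIs of that library. Their Penk level was 3.71 CPM, and the level of GFP- cells in the Otx2/Crx group was 61.7 times that (47.0 to 82.6). Their Sstr2 level was 20.8 CPM, and the GFP- group was 7.79 times that (6.75 to 9.01). Most cells of the GFP- group held proneural UMIs, whereas most GFP+ cells did not. Among cells with a Gngt2 UMI, Sstr2 was 12.7 CPM (2.62 to 37.2) in the 49 GFP- cells of the group and 20.9 CPM (18.7 to 23.4) in 3531 GFP+ cells, and Penk 17.0 CPM (4.62 to 43.4) and 3.00 CPM (2.18 to 4.03). The Sstr2 intervals of these cells overlap. In GFP+ cells Sstr2 was 20.9 CPM (18.5 to 23.4) with under 2 proneural UMIs and 15.5 CPM (9.91 to 23.0) with 2 or more, intervals that overlap. Penk was 2.58 CPM (1.81 to 3.57) and 12.9 CPM (7.87 to 19.9) in the same cells, and 20 of the 56 Penk UMIs lay in 7 of the 273 cells with 2 or more proneural UMIs. Of these 20, 15 lay in 2 cells, and without them the level was 3.26 CPM (1.06 to 7.62), which overlaps that of the other cells. The gates and the depth of their cells cannot be told apart.

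**Figure D3:**
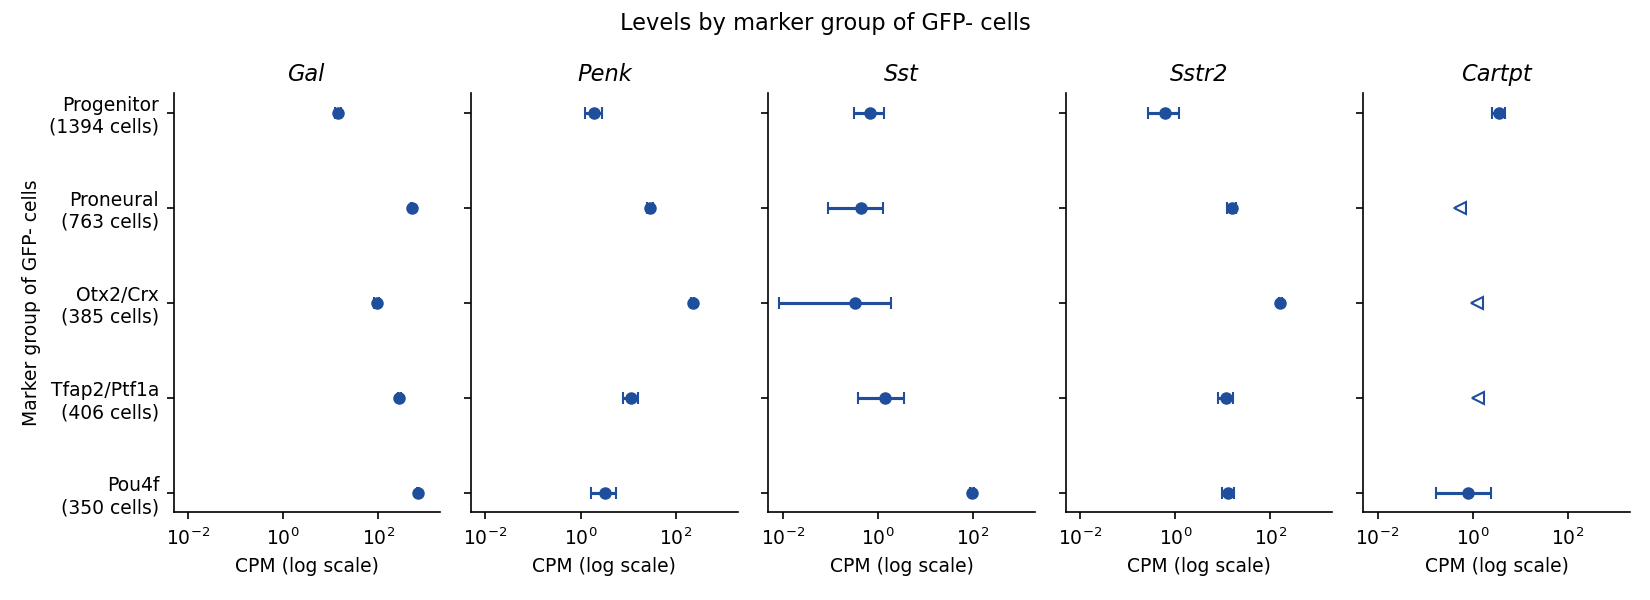
UMIs per 1000000 UMIs on a log axis for 5 of the genes in 5 marker groups of GFP- cells, with 95% exact Poisson intervals. Open triangles mark the upper end of the interval where a group had 0 UMIs. Penk and Sstr2 peak in the Otx2/Crx group, Sst in the Pou4f group, and Gal in the Pou4f and proneural groups.

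Penk and Sstr2 were also found in the same cells. Of 354 GFP- cells with a Penk UMI, 158 had an Sstr2 UMI, 44.6% (39.4 to 49.98), against 4.48% (3.77 to 5.28) of cells without Penk. Seen from the receptor, 53.7% of Sstr2 cells had a Penk UMI. The cells with both had a median of 8961 UMIs, close to the 8940 of cells with neither. They were deeper than cells with Penk alone, at 8052 UMIs, or Sstr2 alone, at 8099.5 UMIs. After thinning, 32.2% of Penk cells and 3.24% of other cells had an Sstr2 UMI. Of the 158 cells, 130 (82.3%) were in the Otx2/Crx group and 23 in the proneural group. Within the Otx2/Crx group 67.0% (59.9 to 73.6) of Penk cells and 20.9% (15.4 to 27.4) of the others had an Sstr2 UMI, and after thinning 43.7% (35.2 to 52.5) and 20.2% (15.3 to 25.8). Among the 311 cells of the group with 2 or more proneural UMIs the shares were 67.9% (60.8 to 74.5) and 29.8% (21.8 to 38.7). The group was itself mixed for both genes. In its cells with an Olig2 UMI the shares were 72.9% (64.3 to 80.3) of 129 Penk cells and 48.0% (27.8 to 68.7) of 25 others, intervals that overlap. In cells without Olig2 they were 55.4% (42.5 to 67.7) and 16.9% (11.5 to 23.4). With 2 or more cell cycle UMIs they were 68.7% (61.0 to 75.7) and 27.9% (15.3 to 43.7), and with fewer 58.1% (39.1 to 75.5) and 18.9% (13.0 to 26.2). With 2 or more Crx UMIs 4 of 10 Penk cells had an Sstr2 UMI (12.2 to 73.8%), against 9.91% (5.05 to 17.0) of the others, which overlap. In the GFP+ library 5 of 43 Penk cells had an Sstr2 UMI, 11.6%, against 7.46% of the other cells.

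By a fixed rule, the genes most like a member were the 5 with the highest ratio of CPM between cells with 2 or more of its UMIs and cells with none, among genes in at least 10% of the former. For Penk (192 cells) these were Hes2 (ratio 84.0), Olig2 (52.8), Elfn1 (47.1), Dll4 (28.5) and Sstr2 (26.6). For Sstr2 (153 cells) they were Hes2 (70.8), Elfn1 (41.4), Olig2 (41.0), Penk (23.8) and Dll4 (22.5). Each gene was thus among the 5 of the other, and the remaining 4 names, which include the Notch ligand gene Dll4 and the Hairy and Enhancer of split family gene Hes2, were on both lists. The 2 lists rest partly on the same cells, as 44.8% of the 192 Penk cells also had 2 or more Sstr2 UMIs. Their likeness is thus not separate from the co-detection given above. Cells were taken over 1 library, so these ratios share its depth and its free RNA. Taken over cells with 1 or more UMIs of the member, all 5 genes stayed on both lists.

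Gal, the galanin precursor, had a different and wider pattern. It was 676 CPM (649.7 to 703) in the Pou4f group, 505 CPM (489 to 522) in the proneural group, 273 CPM (254 to 293) in the Tfap2/Ptf1a group, 93.9 CPM (83.2 to 106) in the Otx2/Crx group and 14.4 CPM (12.4 to 16.6) in the progenitor group. No neighbours in that order of levels had overlapping intervals. A Gal UMI was found in 57.4% of Pou4f group cells, 20.2% of Tfap2/Ptf1a group cells, 19.1% of proneural group cells, 11.7% of Otx2/Crx group cells and 8.97% of progenitor group cells. By shares, the intervals of the Tfap2/Ptf1a and proneural groups overlap, as do those of the Otx2/Crx and progenitor groups. The progenitor share came from 125 cells, of which 7 had 5 or more UMIs, and it fell to 4.19% after thinning. The GFP+ library, at 0.136%, held far fewer Gal cells than the progenitor group of the GFP- library. It was a separate, less deeply read library with 5 Gal UMIs, so its share does not measure free RNA in the GFP- library. The part of free RNA in the low shares was not tested.

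In the proneural group Gal went with Atoh7, the factor required for ganglion cell genesis, in a split that was not planned. Gal was 1294 CPM (1251 to 1338) in the 295 cells with an Atoh7 UMI and 14.3 CPM (10.9 to 18.4) in the 468 without, the same as the level of the progenitor group within its interval. After thinning, 33.7% (28.3 to 39.4) of the former and 3.46% (1.99 to 5.55) of the latter had a Gal UMI. The level was high on both sides of a split by cell cycle UMIs. It was 1199 CPM (1151 to 1249) in 210 Atoh7 cells with 2 or more of these UMIs and 1564 CPM (1472 to 1661) in the 85 with under 2. Penk and Sstr2 split by Atoh7 as well, to 68.4 CPM against 4.76 CPM and to 37.1 CPM against 1.66 CPM. The 37 proneural cells with an Olig2 UMI had more Penk (126 CPM, 88.6 to 173) than the 726 without (24.8 CPM, 21.1 to 28.9). Their Gal level, 265 CPM against 516 CPM, came from 5 cells, and the shares with a Gal UMI, 13.5% (4.54 to 28.8) and 19.4% (16.6 to 22.5), overlap.

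Gal stayed high in the Pou4f group whether or not Atoh7 was found, at 727 CPM (693 to 763) in 224 cells with and 591 CPM (551 to 633) in 126 cells without an Atoh7 UMI. The share with a Gal UMI ran the other way, at 50.4% (43.7 to 57.2) with and 69.8% (61.0 to 77.7) without. In the Tfap2/Ptf1a group it was 288 CPM (267 to 309) in the 367 cells with a UMI of Ptf1a, a factor of amacrine and horizontal cell genesis, and 132 CPM (91.7 to 183) in the 39 without, where 7 cells held Gal and the shares, 20.4% and 17.9%, overlap. Of that group, 50 cells had no UMI of Onecut1, Onecut2 or Lhx1, all from the list of amacrine and horizontal cell genes. Onecut1 was not highest in this group, so the split is not read as horizontal against amacrine cells. The 50 cells had Gal at 383 CPM (320 to 455) and Penk at 50.4 CPM (29.4 to 80.8). The other 356 had Gal at 258 CPM (239 to 279) and Penk at 6.39 CPM (3.65 to 10.4). The shares of these cells with a UMI overlap for Gal, at 30.0% (17.9 to 44.6) and 18.8% (14.9 to 23.3), but not for Penk, which was in 8 of 50 (7.17 to 29.1%) and 3.09% (1.55 to 5.46). The 5 genes most like Gal over 357 cells were Vstm2l (ratio 16.5), the semaphorin receptor gene Nrp1 (14.7), the homeobox gene Irx3 (14.3), the vesicular glutamate transporter gene Slc17a6 (14.3) and Nrn1 (13.4). Of those 357 cells, 151 were in the Pou4f group, 95 in the proneural group and 45 in the Tfap2/Ptf1a group. Taken over cells with 1 or more Gal UMIs, 3 of the 5 genes named stayed among the 5.

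Without the upper limit on genes the Gal ratio between the gates was 142 (101.0 to 206), since the GFP+ library then held 33 Gal UMIs, 28 of them in 3 cells over 3500 genes and up to 15 in one cell. The GFP- library then held 13684 Gal UMIs, or 293 CPM.

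**Figure D4:**
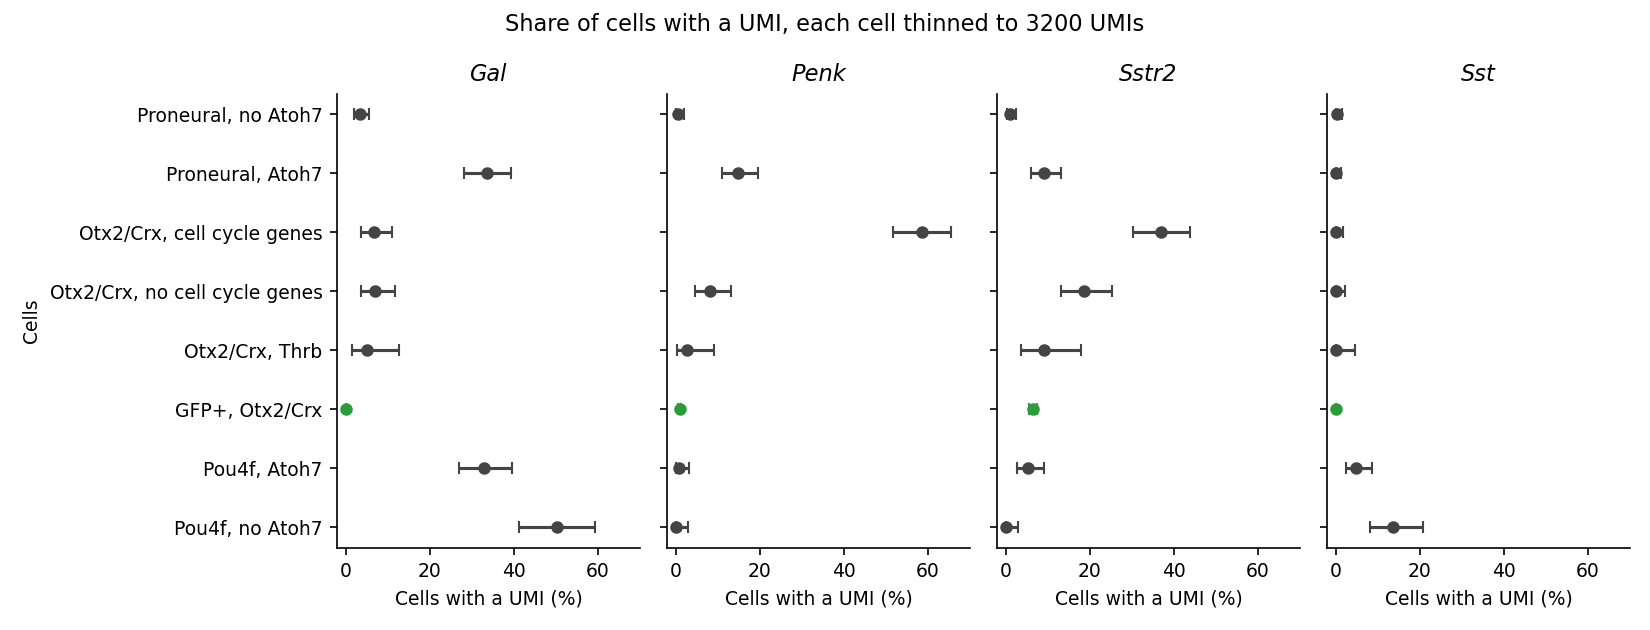
Share of cells with a UMI of Gal, Penk, Sstr2 and Sst, each cell thinned to 3200 UMIs, with 95% exact Clopper-Pearson intervals, in subsets of the proneural, Otx2/Crx and Pou4f groups of GFP- cells (dark) and in GFP+ cells with 2 or more Otx2 and Crx UMIs (green). The labels with and without cell cycle genes stand for 2 or more and under 2 cell cycle UMIs. Of the subsets plotted, Penk is highest in Otx2/Crx cells with 2 or more cell cycle UMIs, at 58.7%, and Sst in Pou4f cells without Atoh7, at 13.6%.

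Sst, the ligand precursor for Sstr2, lay mostly in the Pou4f group, where it was 94.3 CPM (84.6 to 105) and which held 87.9% of Sst UMIs, with a further 7.83% in cells of no group. The other 4 groups lay between 0.336 and 1.41 CPM, with overlapping intervals, and no kept cell in them had more than 1 Sst UMI. A UMI was found in 43 of 350 Pou4f group cells, 12.3% (9.04 to 16.2), against 0.646% of progenitor group cells. Within the Pou4f group the Sst level was higher in the 126 cells without an Atoh7 UMI, at 177 CPM (155 to 200.2). It was 44.7 CPM (36.5 to 54.2) in the 224 with one. An Sst UMI was found in 29 cells without and 14 with Atoh7, 23.02% (15.99 to 31.35) and 6.25% (3.46 to 10.26). After thinning the Sst shares were 13.6% (8.13 to 20.88) and 4.91% (2.48 to 8.62), intervals that overlap. The cells without Atoh7 were deeper, at a median of 11620 against 10223 UMIs. The Sstr2 level ran the other way in the same cells, at 4.33 CPM (1.59 to 9.42) without and 18.2 CPM (13.1 to 24.6) with Atoh7. The Sstr2 shares, 4.76% (1.77 to 10.1) and 12.5% (8.47 to 17.6), overlap. Of the 33 cells with 2 or more Sst UMIs, 29 were in the Pou4f group and 4 in no group. The genes most like Sst in those cells were the cytidine deaminase gene Cda (ratio 22.3), Nrn1 (18.6), the tachykinin precursor gene Tac1 (18.1), Pou4f1 (17.6) and Syt13 (16.2). Tac1 was found in 4 of those 33 cells. Taken over cells with 1 or more Sst UMIs, 3 of these 5 genes stayed among the 5.

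The limit on genes bore most on Sst. Without it the GFP- library held 1718 Sst UMIs in 234 cells, or 36.7 CPM, of which 1322 UMIs lay in 166 cells over the limit, up to 96 in one cell. The proneural group then had 39 Sst UMIs, up to 22 in one cell, or 3.95 CPM (2.81 to 5.40), and the progenitor group 28, up to 7 in one cell, or 1.61 CPM (1.07 to 2.33), so the low Sst counts outside the Pou4f group hold for kept cells only. In the 460 Pou4f cells with 3500 genes or more, Sst was 160.4 CPM (151 to 170), Gal 568 CPM (551 to 586) and Sstr2 2.71 CPM (1.66 to 4.19), against 94.3, 676 and 13.0 CPM below the limit. The deep Pou4f cells thus had more Sst and less Sstr2 per UMI.

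Ligand and receptor were seldom found in one cell. A single kept cell had both Sst and Sstr2, and 2 cells had both Penk and Sst. In the Pou4f group 0 of 43 Sst cells had an Sstr2 UMI, a share of 0 to 8.22%. Of its other cells 11.1% (7.79 to 15.1) had one, and these intervals overlap. Without the limit on genes 2 of 175 Sst cells of the group had one, 1.14% (0.139 to 4.07), against 7.09% (5.22 to 9.37). These shares are not given by Atoh7, by which the levels of Sst and Sstr2 ran opposite ways in that group.

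Gal and Sst were found together in 37 cells, 54.4% (41.9 to 66.5) of Sst cells, against 18.3% of cells without Sst. Of these 37 cells, 30 were in the Pou4f group. Within that group 69.8% (53.9 to 82.8) of Sst cells and 55.7% (49.9 to 61.3) of the others had Gal, intervals that overlap, and after thinning 42.9% and 38.9%. Gal and Penk were found together in 73 cells. A Penk UMI was in 11.3% (8.98 to 14.0) of Gal cells and 10.2% (9.13 to 11.4) of other cells. At 2 or more UMIs of each gene, Penk was in 3.08% of Gal cells. Of all 3389 kept GFP- cells, Gal cells included, 192 had 2 or more Penk UMIs. No interval is given at that setting, so no difference is read from it. In the proneural group the shares were 24.0% (17.3 to 31.7) and 10.7% (8.37 to 13.4), but among its cells with an Atoh7 UMI they were 29.1% (20.8 to 38.5) and 27.6% (21.3 to 34.6). Gal and Sstr2 shared 66 cells, with an Sstr2 UMI in 10.2% (8.0 to 12.8) of Gal cells and 8.31% (7.30 to 9.41) of others.

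**Figure D5:**
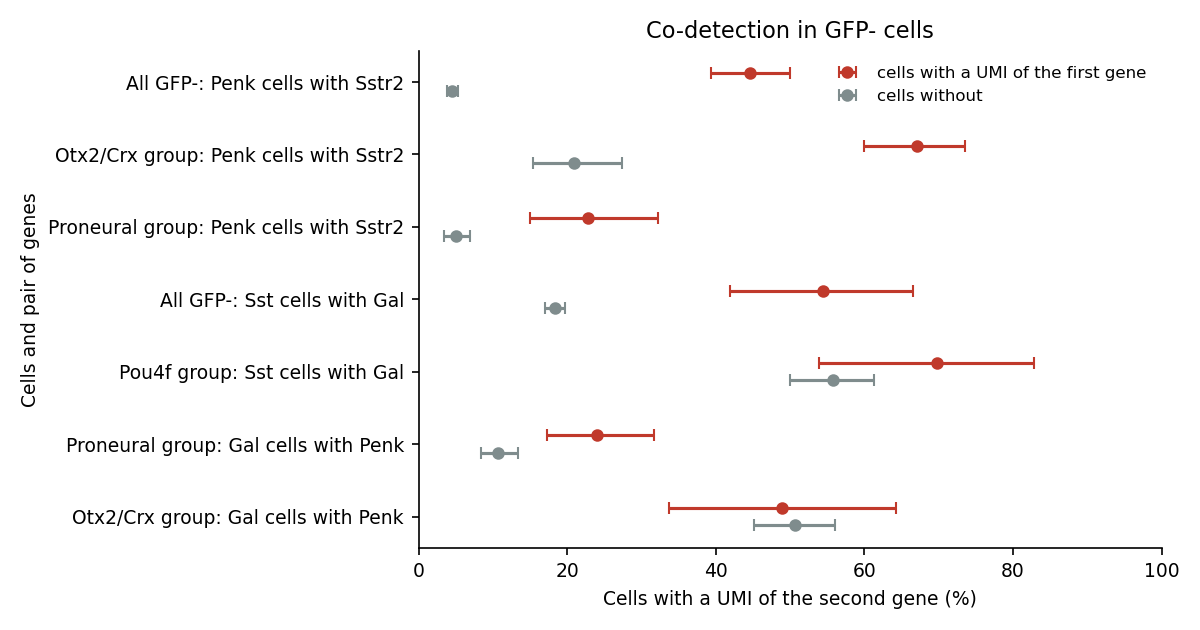
Share of GFP- cells with a UMI of a second gene among cells with a UMI of the first gene (red) and among cells without (grey), with 95% exact Clopper-Pearson intervals, over all GFP- cells or within a marker group. Sstr2 in Penk cells stands apart from Sstr2 in other cells in all 3 settings plotted, whereas Gal in Sst cells overlaps the other cells within the Pou4f group.

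Cartpt, the CART precursor, rested on 9 GFP- cells. Of its 50 UMIs, 46 lay in 6 cells of the progenitor group, 2 of which had 16 UMIs each, 3 in 2 cells of the Pou4f group and 1 in a cell of no group. Of the 6 cells with 2 or more Cartpt UMIs, 4 had a UMI of Pax2, a paired box factor of the optic stalk and its astrocytes, which was found in 1.505% of all kept GFP- cells. These 6 cells held 10 of the 83 Pax2 UMIs of the library. Of a list of 3 astrocyte and optic stalk genes that includes Pax2, 3 of the 6 cells had 2 or more UMIs. As 3 of the 6 had 2 or more UMIs of Pax2 alone, the other genes of the list added no cell. Of 5 mesenchyme genes, 2 of the 6 cells had 2 or more UMIs. Since fewer than 20 cells had 2 or more Cartpt UMIs, the genes most like Cartpt were taken over all 9 cells with a UMI. The highest ratio was that of Ccnd2, the cyclin D2 gene (35.1), of which one cell held 29 UMIs, followed by Hopx (12.7), Fabp7 (10.5), Cntnap2 (10.4) and Rnpep (9.40). The 3 cells with an Npy UMI, 2 of them in the progenitor group and 1 in the proneural group, held 4 UMIs in all.

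Markers of other cell types that a retinal dissociation could hold were found at low levels, some of them above those of the scarcer of the 6 genes. Over the kept GFP- cells, the summed levels of the myeloid, red blood cell, pigment epithelium, astrocyte and optic stalk, lens and mesenchyme lists lay between 0.598 and 8.84 CPM, and 1 to 20 cells had 2 or more UMIs of a list. In GFP+ cells these lists lay between 0.194 and 27.0 CPM. The highest was the myeloid list, which was above each of the 6 genes there, though its genes C1qb and Csf1r had 0 UMIs in GFP+ cells. Of the genes of these lists, Rpe65, Alas2, Dcn, Col3a1 and Crygs had 0 UMIs in the kept cells of both libraries. Other genes of the same lists did have UMIs, so these zeros do not show that a cell type was absent. The endothelial list was higher, at 64.0 CPM in the GFP- library and 9.48 CPM in the GFP+ library. Of its genes, Kdr was 54.3 CPM in the progenitor group and 42.2 CPM in the proneural group, and Cldn5 was 245 CPM in the Tfap2/Ptf1a group and 0.772 to 3.08 CPM in the other 4 groups, while Cdh5 had 0 UMIs. Of all 3389 kept GFP- cells, 349 had 2 or more endothelial UMIs. Among cells with 2 or more UMIs of a gene, 25 of 357 did for Gal and 7 of 192 for Penk. For Sstr2 it was 3 of 153 cells and for Sst 0 of 33. The part of the endothelial list in these levels was not tested.

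Most other receptor genes for these peptides had few UMIs or none. Of 17 further receptors for somatostatin, galanin, opioids and neuropeptide Y, 16 were listed and 5 had no UMI in either library. Sstr1 had 4 UMIs and Sstr3 3 UMIs in GFP- cells, and Sstr4, Sstr5 and Galr1 had none in either library. Galr2 had 1 UMI in GFP- and 8 in GFP+ cells. Of the opioid receptors, Oprm1 had 15 and 10 UMIs, Oprd1 2 and 0, and Oprk1 3 and 2. The galanin receptor genes listed (Galr1 and Galr2) and the mu, delta and kappa opioid receptor genes were thus each below 1 CPM in both gates. Galr3 was not listed. Ogfr, the opioid growth factor receptor gene, which is not a G protein-coupled receptor, was at 70.9 CPM in the GFP- library and 60.6 CPM in the GFP+ library. Of the 4 receptors with enough UMIs, none was at least 2-fold higher in GFP- cells and 1 (Npy1r, 8 against 12 UMIs) was lower by that ratio. Over all genes the shares were 16.2% higher and 23.0% lower.

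Of 41 other neuropeptide precursors, 19 had enough UMIs. Of these, 5 were at least 2-fold higher and 6 at least 2-fold lower in GFP- cells, beside 16.2% and 23.0% of all genes. Their median log2 ratio was -0.45, beside -0.30 over all genes. Adcyap1, the precursor of PACAP, and Tac1 were, like Sst, highest in the Pou4f group, at 49.3 and 24.9 CPM. Pomc, the precursor of the melanocortins and beta-endorphin, was at 28.4 CPM in the GFP- library and 38.2 CPM in the GFP+ library, and at 57.4 CPM in the Tfap2/Ptf1a group. Of 30 other neuropeptide receptors, 11 had enough UMIs, with a median log2 ratio of -0.04. Of these, 1 (Ednrb) was higher and 4 lower in GFP- cells by that ratio, beside 16.2% and 23.0% of all genes. Npr2, the receptor for C-type natriuretic peptide, was at 28.4 CPM in the GFP+ library and 5.42 CPM in the GFP- library.

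Genes that process and store peptides lay on both sides of the gates, as did genes in general. Of 22, 21 had enough UMIs, of which 7 were at least 2-fold higher and 6 at least 2-fold lower in GFP- cells, with a median log2 ratio of -0.16, beside 16.2% and 23.0% of all genes. Under TMM factors these 4 lists gave 5 higher and 5 lower for precursors, 0 and 1 for the receptors of these peptides, 3 and 4 for other receptors, and 8 and 5 for the processing genes. Of all 15236 genes, 3184 were then higher and 2416 lower in GFP- cells. Pcsk2, a prohormone convertase of secretory granules, was at 23.8 CPM in the GFP- library and 9.03 CPM in the GFP+ library, with 99.3 CPM in the Tfap2/Ptf1a group, 54.2 CPM in the Pou4f group and 9.42 CPM in the Otx2/Crx group. The Otx2/Crx group, where Penk was highest, was thus below the Tfap2/Ptf1a and Pou4f groups in this convertase. So were the proneural group, at 13.0 CPM, and the progenitor group, at 5.71 CPM. Cpe, the carboxypeptidase that trims peptide precursors, was at 88.7 CPM in the GFP- library and 99.1 CPM in the GFP+ library, and 67.6 CPM in the Otx2/Crx group against 198 CPM in both the Pou4f and Tfap2/Ptf1a groups. The granule protein genes Chga, Chgb and Scg3 were higher in GFP+ cells, as was Furin of the same list, at 37.2 against 11.2 CPM. Others of the list were not. Scg5 was within 2-fold, at 243 CPM in the GFP+ library and 190 CPM in the GFP- library. Pcsk1n was higher in GFP- cells, at 73.6 against 30.0 CPM. Chgb, the chromogranin B gene, was at 628 CPM in the GFP+ library and 27.3 CPM in the GFP- library, and Scg3, the secretogranin III gene, was 142 CPM and 32.9 CPM. Within the GFP- library Chgb was 170 CPM in the Tfap2/Ptf1a group, 51.8 CPM in the Otx2/Crx group and 35.8 CPM in the Pou4f group.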

How the data were processed

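The deposited files hold UMI counts per gene and cell, which the authors made by running Cell Ranger 2.1.1 on an mm10 reference for barcodes called as cells, with no normalization. The matrices were read as sparse counts, and the 6 genes were found by symbol. The mitochondrial limit in the methods was read as a fraction. UMIs were summed over cells and scaled per 1000000, so that precision is set by the depth of each library. Genes were set past a ratio of 2 or 0.5 with 0.5 added to both sums. The members and all gene lists were chosen with earlier results of these data known, and the splits by Olig2, Crx, cell cycle and depth after their values were seen. The split of the proneural group by Atoh7 and the splits by Thrb and Gngt2 were not planned either. List genes were named from 20 CPM in a library or group, or where a count of 5 or fewer needed them, and receptors of these peptides as defining their list. Likeness was taken over cells with 2 or more UMIs of a gene, or 1 where fewer than 20 cells had 2. Not every gene of the marker sets is reported here. Shares were thinned with a fixed seed. Doublets were called with Scrublet in scanpy 1.11.5 and left in. Alternatives were no filters, the lower limits alone, exclusion of called doublets, thinned cells, TMM factors, mean UMIs per cell, 1 or 3 UMIs per marker set and other ratios. The interval code was run on simulated counts drawn independently for each gene, and the group rule on a few made-up cells. These runs check the code only, not the spread between cells or the groups in these data. Python 3.11.15, numpy 2.4.6, pandas 2.3.3, scipy 1.17.1, R 4.3.3 and edgeR 4.0.16 (TMM factors only) were used.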

Additional observations from a re-analysis of the deposited data

How the results depend on the processing

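No paired analysis was possible because each gate gave 1 library. Over the alternatives, 58 values stayed within their counting interval or, for counts of genes, within 1.5 times, and 30 moved further. Leaving out called doublets could not change values within GFP- cells, since none of those kept was marked. The Sstr2 ratio, which was not past 2-fold, crossed 1 without the gene limit and passed 2 as mean UMIs per cell. Without the upper limit on genes, and without any filter, the GFP- over GFP+ ratio was 142 for Gal and 0.889 for Sstr2. Thinned cells gave a Gal ratio of 2484, which rested on 1 GFP+ UMI. TMM factors gave an Sstr2 ratio of 1.40, and mean UMIs per cell gave 2.36 for Sstr2 and 18.5 for Penk. Without the upper limit, Gal was 604 CPM and Sst 138 CPM in the Pou4f group, Penk was 248 CPM in the Otx2/Crx group, and 68.4% of Sst cells had Gal and 7.62% of Gal cells had Sstr2. In thinned cells, grouped anew, Penk was 184 CPM and Sstr2 148 CPM in the Otx2/Crx group, and the shares were 32.2% for Sstr2 in Penk cells, 32.5% for Gal in Sst cells, and 6.19% for Penk and 5.50% for Sstr2 in Gal cells. With at least 2 UMIs of each gene the last 2 were 3.08% and 4.76%. With 1 UMI of a marker set, Penk was 157 CPM and Sstr2 114 CPM in the Otx2/Crx group, Sst 77.0 CPM in the Pou4f group and Cartpt 5.87 CPM in the progenitor group. With 3 UMIs, Gal was 627 CPM in the Pou4f group and Sstr2 179.9 CPM in the Otx2/Crx group. At a ratio of 4, 1422 genes were higher and 1278 lower in GFP- cells, and at 1.5, 5783 were lower. The split, mostly lower at a ratio of 2, was thus mostly higher at a ratio of 4 and under TMM factors (3184 higher, 2416 lower). Npy and 12 of 16 listed receptors of these peptides had too few UMIs for a ratio. The causes of these shifts were not tested.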

Other observations

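The 75 kept GFP- cells in no marker group had Gal at 728 CPM (666 to 795) and Sst at 45.2 CPM (30.7 to 64.2), with a Gal UMI in 40 and an Sst UMI in 8 of them, but only 5 Penk UMIs and 1 Sstr2 UMI. Their ganglion cell genes Sncg (3222 CPM) and Gap43 (2759.8 CPM) were above the levels of the Pou4f group (1516 and 1932 CPM). The myeloid gene C1qa was 137 CPM. In the whole GFP- library 6 kept cells had 2 or more UMIs of the myeloid list, so this level is not read as a trait of the 75 cells. In the 16 cells in more than 1 of the 3 fate sets, Gal was 198 CPM (128 to 292), Sstr2 had 5 UMIs, and Penk and Sst had none.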
